A study of Mus musculus with 6 samples.

Results

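The Zfp genes of the mouse encode zinc finger proteins, and their RNA was compared here between control and lamin A/C knockdown E0771 cells. Members were all genes of the deposited table whose symbol is Zfp followed only by digits, with 1 such symbol set aside. The rule gave 189 members among 10520 genes, and 140 of them, among 8969 genes in all, had enough counts to be tested. The cells were E0771, a breast carcinoma line of C57BL/6 mice. They were transduced with a lentivirus that carried either the empty pLKO.5-puro vector (shControl) or, in the shLmna group, an shRNA that targets lamin A/C, and both populations were selected in puromycin and expanded. Each group had 3 libraries, made by MARS-seq, a method that reads the 3' end of polyadenylated RNA and counts each captured molecule once by its unique molecular identifier (UMI). The knockdown rested on a single shRNA, and the control vector held none. Nothing in the labels says whether the libraries of a group came from separate cultures, so the p-values measure the spread between these libraries, which may be technical.

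Most Zfp proteins are built from C2H2 fingers, short repeats in which 2 cysteines and 2 histidines hold a zinc ion and the residues between them read bases of DNA. Many also carry a KRAB box at the amino end, which recruits the co-repressor TRIM28 and, through it, the histone methyltransferase SETDB1 and HP1 proteins, and so places heterochromatin at the bound site. These KRAB genes arose by tandem duplication, lie in clusters, and many of them repress retroelements. Lamin A/C lines the inside of the nuclear envelope, where much heterochromatin is anchored.

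The repeat that defines the family can be read from the coding sequence. The codons of the 2 cysteines and 2 histidines are in capitals in 1 finger of each of the members with the largest rises among those tested. Both stretches were read from GENCODE M21 transcripts, with positions in GRCm38, and each spans 21 codons. The finger of Zfp948 is the eighth of 15 that the pattern found, and lies in exon 6 of 6. That of Zfp367 is the first of only 2, and lies in exon 2 of 5.
Zfp948, chr17:21587862-21587924 (plus strand): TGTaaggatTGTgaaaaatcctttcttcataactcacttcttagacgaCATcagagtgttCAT
Zfp367, chr13:64145534-64145596 (minus strand): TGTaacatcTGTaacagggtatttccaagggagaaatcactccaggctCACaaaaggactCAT

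The knockdown itself was visible in the counts. Lmna had 2066, 2794 and 1764 UMIs in the shControl libraries and 1035, 1023 and 713 in the shLmna libraries, a log2 fold change of -1.20 (SE 0.13, adjusted p = 3.5e-05). The libraries held between 1846208 and 3242051 UMIs, and Zfp members took between 0.333% and 0.368% of them, with no separation between groups. The library titles name the same plate and number the shControl libraries directly before the shLmna libraries, whose titles read shRNA4. What these numbers stand for is not said, and anything that follows their order cannot be told apart from the group. Of the cell type markers, 1 of 4 endothelial ones was in the table. For this list the summed level was 1.55 to 7.91 normalized counts in shControl and 1.86 to 5.28 in shLmna. For fibroblasts 4 of 7 were in the table (46.1 to 46.8 against 67.5 to 76.6), and for immune cells 2 of 6, without Ptprc (38.1 to 42.9 against 45.6 to 60.5). For the epithelium 5 of 8 were in it, without Cdh1 (685 to 819 against 732 to 791). Most of that sum was Krt8 (686 and 722). Epcam (33.9 and 17.6, adjusted p = 0.091), Krt14 (20.5 and 9.73, adjusted p = 0.077) and Krt18 (17.3 and 11.3, adjusted p = 0.45) were lower but did not pass. Krt7 was higher and not tested (6.50 and 9.31). Within these lists Pdgfrb rose (log2 fold change 0.74, adjusted p = 0.046) and so did Lyz2, a macrophage gene (14.9 and 36.4 normalized counts, 1.28, adjusted p = 0.011), while the macrophage gene Cd68 had a log2 fold change of -0.62 that did not pass (adjusted p = 0.23). Malat1 and Neat1, nuclear non-coding RNAs, summed to 840 to 956 in shControl and 488 to 515 in shLmna, and both fell. The part of these markers in the results for Zfp genes was not tested. In bulk libraries, fewer cells with a transcript and less of it per cell cannot be told apart.

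The family as a whole lay near 0. The median log2 fold change (shLmna minus shControl) of the 140 tested members was -0.01, beside 0.003 for all genes tested, with 70 members above 0 and 70 below. The quartiles of the members were -0.30 and 0.33. At an adjusted p below 0.05, 8 members rose and 8 fell, which is 11.4% of those tested, beside 13.7% of all genes. In all genes 7.96% rose and 5.78% fell. A change of over 2-fold was met by 6 of the higher members (3.97% of all genes) and by 1 of the lower ones (1.74% of all genes). All 6 passed the low-count filter through the shLmna libraries alone, which set their direction, so nothing is read from that count. The 3 libraries of each group did not overlap for 24 members that were higher and 21 that were lower, 45 of 140 together, beside 32.5% of all genes. An unadjusted p below 0.05 was found for 38 members, beside 28.4% of all genes. These counts depended on single libraries, and leaving each out in turn gave 4 to 9 higher and 1 to 8 lower members. Zfp transcripts were scarce, with a median of 30.5 normalized counts beside 88.9 for all genes, and the median standard error of their log2 fold change was 0.28 beside 0.21. For 78 of the 140 the 95% interval stayed within a 2-fold change in either direction, and for the other 62 it reached beyond that. In 4 of these, Zfp367, Zfp948, Zfp260 and Zfp644, the whole interval lay beyond it, and all 4 are among the 6 whose direction the filter set.

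**Figure D1:**
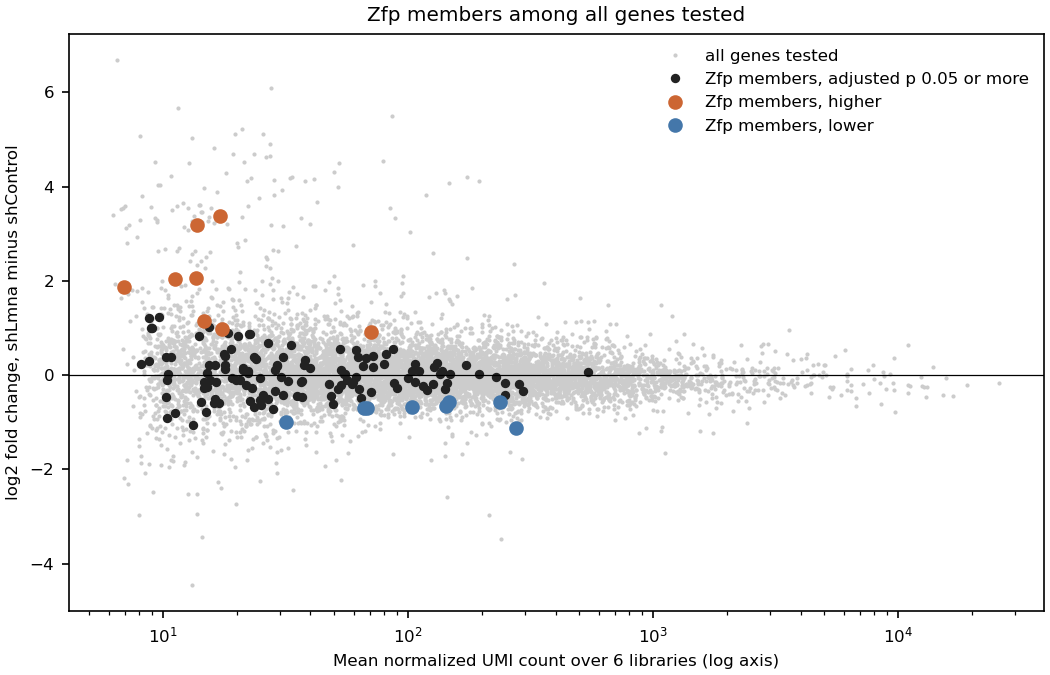
Log2 fold change (shLmna minus shControl) of each tested gene against its mean normalized UMI count over the 6 libraries, on a log axis. Grey points are all 8969 genes, black points the Zfp members that did not pass the test, orange points the 8 that rose and blue points the 8 that fell. Of the members that rose, 7 have a mean under 20, and all 8 that fell have a mean above it.

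The members that rose were mostly rare in control cells. The first 3 given here passed the low-count filter through the shLmna libraries alone, which set their direction and kept the groups apart. Zfp367, known as an activator of erythroid genes, had 1, 5 and 3 UMIs in the shControl libraries and 29, 46 and 19 in the shLmna libraries. The normalized mean went from 2.94 ± 1.70 to 31.4 ± 9.23 (SD, n = 3), a log2 fold change of 3.38 (SE 0.45, adjusted p = 0.0002). Zfp948, a KRAB zinc finger gene, had 2, 1 and 5 UMIs against 29, 32 and 13. Its log2 fold change was 3.17 (SE 0.52, adjusted p = 0.0011). Zfp260, a regulator of cardiac genes that works with GATA4, had 3, 8 and 5 UMIs against 16, 33 and 16, a log2 fold change of 2.06 (SE 0.43, adjusted p = 0.0056). It has 12 fingers and no KRAB pattern, in a stretch of chromosome 7 where most neighbours have both.

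Zfp644, a partner of the histone methyltransferases G9a and GLP, had 2, 6 and 5 UMIs in shControl and 11, 25 and 16 in shLmna. The log2 fold change of 2.04 (SE 0.48, adjusted p = 0.012) fell to 1.31 with an adjusted p of 0.051 once fold changes were corrected for the GC content of the 3' end, so this call was lost. Zfp87, a KRAB gene of a chromosome 13 cluster, had 5, 3 and 1 UMIs against 11, 12 and 9 and rose by 1.86 (SE 0.50, adjusted p = 0.022). That call was lost in 6 of 15 alternatives, among them DESeq2 (adjusted p = 0.094) and 5 of the 6 fits that left out a library. Zfp148, which binds GC-rich promoters and is also known as ZBP-89, had 10, 11 and 7 UMIs against 22, 25 and 13, a log2 fold change of 1.15 (SE 0.33, adjusted p = 0.033). It was lost in 9 of 16 alternatives, among them DESeq2 (adjusted p = 0.13) and all 6 fits that left out a library. All 6 of these members passed the low-count filter through the shLmna libraries alone, since no shControl library reached the level it asks for, and a gene kept in that way had to differ. In 4 more members of this kind, Zfp248, Zfp282, Zfp626 and Zfp830, the difference did not pass the test.

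The remaining members that rose stood at higher levels in control cells. Zfp523, a relative of the promoter-binding factor Zfp143, had 42, 70 and 39 UMIs in shControl and 91, 106 and 73 in shLmna. Its normalized mean of 48.9 ± 7.07 became 92.6 ± 6.83 (SD, n = 3), a log2 fold change of 0.92 (SE 0.20, adjusted p = 0.0075), and the call held under every alternative tried. Zfp143 itself stood at 38.4 and 34.9 normalized counts and did not pass. Zfp839 had 13, 14 and 9 UMIs against 26, 25 and 17, a log2 fold change of 0.97 (adjusted p = 0.047), and was lost in 10 of 16 alternatives. Its 3' end matches stretches of at least 106 bases in Il7r and Olfr961 at over 95% identity, so its counts are uncertain.

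Among the members that fell, Zfp703 changed most. Its human homologue is an oncogene of luminal B breast cancer. The shControl libraries held 350, 450 and 340 UMIs of Zfp703, and the shLmna libraries 191, 222 and 103. Every shLmna library lay below every shControl library, and the normalized mean went from 380 ± 59.5 to 172 ± 33.6 (SD, n = 3), a log2 fold change of -1.13 (SE 0.18, adjusted p = 0.00069). The call held under every alternative, and with 380 normalized counts this was also the member with the second highest level in control cells. In its protein, as in that of Zfp330, the pattern used here found no complete C2H2 finger.

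The other members that fell changed by less than 2-fold. Zfp296, known from reprogramming to pluripotency, had 194, 196 and 138 UMIs against 124, 106 and 91, a log2 fold change of -0.65 (SE 0.17, adjusted p = 0.019). Zfp330 encodes a nucleolar protein and had 173, 228 and 137 UMIs against 129, 134 and 83, a log2 fold change of -0.58 (SE 0.15, adjusted p = 0.022). In both genes the groups did not overlap after normalization. Zfp428 fell by 0.57 on the log2 scale (SE 0.15, adjusted p = 0.020), but its 3' end overlaps a gene on the other strand, and without a stated strand in the counting these reads cannot be told apart. Zfp3 had 53, 55 and 25 UMIs against 30, 19 and 14 and fell by 1.00 on the log2 scale (SE 0.28, adjusted p = 0.028). Zfp35 fell by 0.69 (adjusted p = 0.044), and was lost in 9 of 17 alternatives, among them DESeq2 (adjusted p = 0.076), upper-quartile scaling and 5 of the 6 fits that left out a library. Over all 16 called members, 5 kept the call in every alternative in which they were tested. The other 11 lost it in at least 1 of the fits that left out a library. In those fits Zfp296, Zfp428, Zfp3 and Zfp644 were each lost in 4 of 6 and Zfp330 in 5 of 6.

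The last pair of members that fell lay near the threshold. Zfp568 is a KRAB gene that represses a placental transcript of Igf2, and it had 136, 202 and 71 UMIs against 102, 74 and 60, a log2 fold change of -0.68 (SE 0.21, adjusted p = 0.046). Its groups overlapped after normalization, the only case among the 16 called members. Zfp410, whose known target is the promoter of Chd4, had 93, 114 and 54 UMIs against 46, 50 and 52, a log2 fold change of -0.70 (SE 0.22, adjusted p = 0.049). Chd4 did not pass, with 892 ± 72.1 and 950 ± 52.2 normalized counts and a log2 fold change of 0.09 (95% interval -0.19 to 0.37). Each of these calls was lost in 12 of 17 alternatives. Just outside the threshold stood Zfp513 (0.54, adjusted p = 0.063), Zfp248 (1.21, adjusted p = 0.064) and Zfp106 (-0.42, adjusted p = 0.072).

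**Figure D2:**
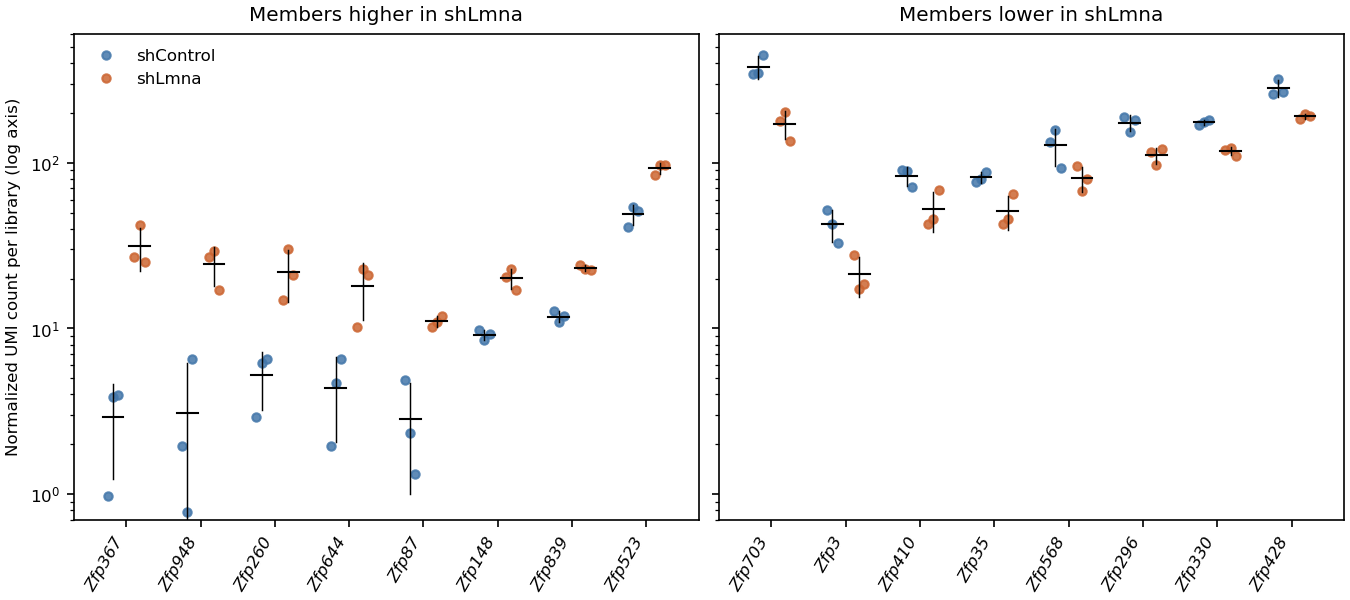
Normalized UMI counts of the 16 called Zfp members in each library, on a log axis, with shControl in blue and shLmna in orange. Bars show the mean ± SD of 3 libraries. Zfp568 is the only member here in which the groups overlap.

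Members with a known role outside repression were followed 1 by 1. Zfp207, a kinetochore protein that binds Bub3, was the most abundant member. It stood at 531 ± 54.3 and 553 ± 1.16 normalized counts (SD, n = 3), and its log2 fold change of 0.06 had a 95% interval of -0.23 to 0.35. The 4 members that act on RNA or ribosomes included Zfp598, the ubiquitin ligase that senses collided ribosomes (328 and 261 normalized counts, log2 fold change -0.33, adjusted p = 0.14), and the RNA-binding Zfp106 (286 and 213). With edgeR, limma-voom and DESeq2 alike 0 of these 4 passed, and 2 had an unadjusted p below 0.05, both with negative log2 fold changes. Zfp384, which binds runs of A and T, completes the 5 most abundant members at 302 and 264 normalized counts (-0.20, adjusted p = 0.41). The ubiquitin ligase Zfp91 (101 and 106) and the SUMO ligase Zfp451 (62.2 and 57.0) did not pass, nor did Zfp335 (112 and 102), which is needed for genome stability. Zfp830, known from replication and genome maintenance, was at 5.58 and 13.8 with a log2 fold change of 1.22 (adjusted p = 0.072).

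Of the 12 tested members known as regulators of transcription, 1 rose (Zfp148) and 2 fell (Zfp703 and Zfp410), beside 7.96% and 5.78% of all genes. Zfp148 entered the test through the shLmna libraries alone, and the call of Zfp410 was lost in 12 of 17 alternatives. Zfp217, another breast cancer gene, stood at 27.2 and 31.2 normalized counts with a log2 fold change of 0.21 (adjusted p = 0.64). Among members known to act on imprints and retroelements, 4 were tested and only Zfp568 passed. Zfp809, which silences endogenous retroviruses, stood at 33.9 and 41.5 (0.22, adjusted p = 0.69), and Zfp445, which guards imprints, at 40.6 and 30.0 (-0.45, adjusted p = 0.41). Zfp961 had 8, 14 and 9 UMIs against 16, 31 and 14, a log2 fold change of 1.03 that missed the threshold (adjusted p = 0.077).

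Members with and without a KRAB box were compared by count. A KRAB pattern was found in the translated sequence of 86 members, 48 of them tested, and in these 2 rose and 1 fell, which is 6.25% called. Of the 103 without it 92 were tested, 6 rose and 7 fell, which is 14.1%, beside 13.7% of all genes. The difference between the classes was not tested. The median log2 fold changes were 0.02 and -0.05. KRAB members were rarer, with a median of 21.9 normalized counts beside 54.3, and 38 of the 49 members that could not be tested carried the pattern. Members held between 0 and 36 fingers with a median of 10. Of those with 10 or more, 56 were tested, 3 rose and 3 fell. Among other families with zinc-binding domains, 23 Zbtb genes were tested and 5 rose and 2 fell, of 10 Klf genes 1 rose and 2 fell, and of 10 Zscan and Zkscan genes and 15 Zdhhc genes 1 and 2 rose. Of 12 Zc3h genes 0 passed with edgeR or DESeq2 and 1 with limma-voom, and 1 had an unadjusted p below 0.05.

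The machinery through which KRAB proteins act was measured with them. Of 39 co-repressor genes 33 were in the table and 30 were tested, and 6 rose at an adjusted p below 0.05, beside 7.96% of all genes. Of these 6, 3 entered the test through the shLmna libraries alone and so had to differ, and nothing is read from the count. With edgeR, limma-voom and DESeq2 alike 0 fell, and 1 was lower at an unadjusted p below 0.05. The core of the complex did not pass. Trim28 had 1509, 2018 and 983 UMIs against 1364, 1363 and 914, a log2 fold change of -0.22 (95% interval -0.50 to 0.06), and Setdb1 144, 154 and 76 against 96, 119 and 83 (-0.24, 95% interval -0.63 to 0.15). A change of over 2-fold lay outside both intervals.

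The 3 that entered the test in this way were chromatin remodellers, Atrx, Hells and Smarcad1. Atrx, which deposits histone H3.3 at heterochromatin together with Daxx, had 2, 1 and 2 UMIs in shControl and 41, 70 and 43 in shLmna, a log2 fold change of 4.91 (SE 0.44, adjusted p = 7.8e-06). Hells, needed for DNA methylation of repeats, had 3, 3 and 6 UMIs against 64, 67 and 72 (4.12, SE 0.39). Smarcad1, which TRIM28 binds, had 0, 1 and 0 UMIs against 14, 32 and 20. That is 1 UMI against 66, a ratio of 69.3 with a counting interval of 12 to 2777. All 3 had 3' ends with a GC content of 32.8 to 35.4%. Of 10 tested genes of the NuRD complex, 3 rose, beside 7.96% of all genes. Mta1 rose by 0.76 (adjusted p = 0.0025) and Chd3 by 0.50 (adjusted p = 0.031), with 3' ends of 54.9 and 54.8% GC. Rbbp7 rose by 0.89 (adjusted p = 0.034). The call of Mta1 held in every alternative, that of Chd3 was lost in 5 of the 6 fits that left out a library, and that of Rbbp7 in 7 of 17 alternatives. The other 7, among them Chd4, did not pass, with log2 fold changes from -0.28 for Mta2 to 0.36 for Gatad2a.

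**Figure D3:**
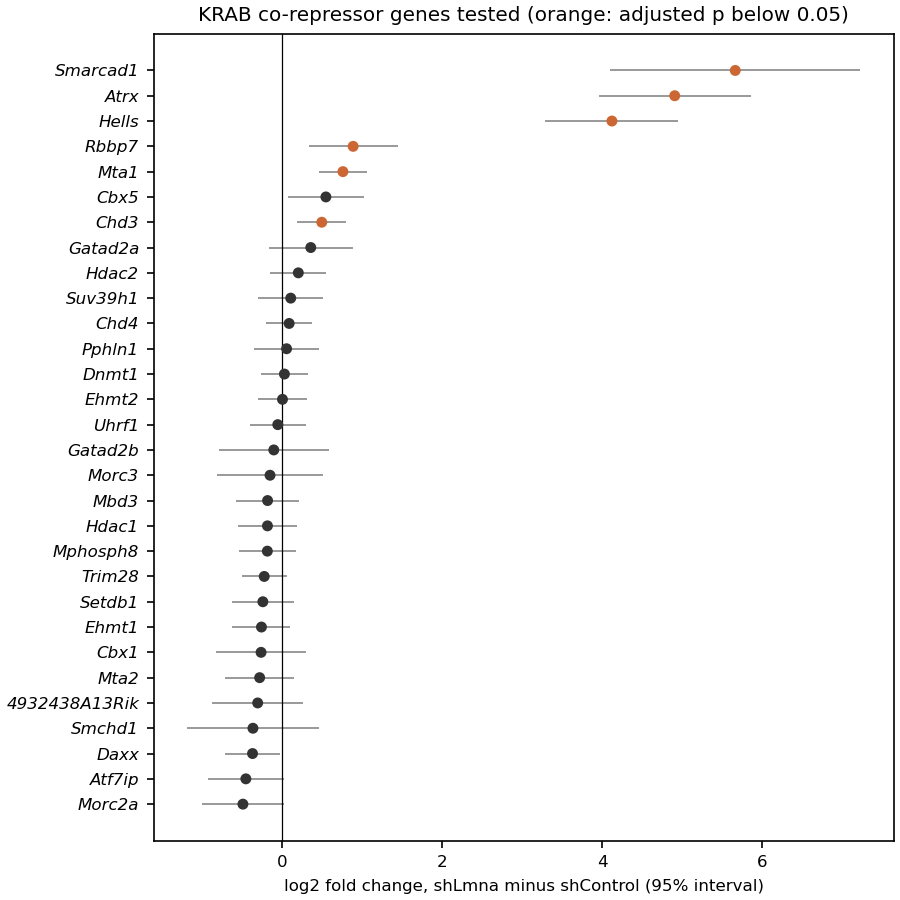
Log2 fold change (shLmna minus shControl) of the 30 tested co-repressor genes with 95% intervals. Orange points are the 6 with an adjusted p below 0.05, of which Smarcad1, Atrx and Hells lie above 4, while Trim28 and Setdb1 sit just below 0.

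The 49 members below the filter held at most 32 UMIs in any library. They were fitted without the filter, together with all 10520 genes. In that fit 16 of the 189 members rose and 6 fell, beside 6.75% and 4.78% of all genes. Of the 49, 9 rose, and those were Zfp51, Zfp52, Zfp53, Zfp472, Zfp758, Zfp800, Zfp930, Zfp942 and Zfp944. Every gene of the table reaches at least 6 UMIs in some library, and in these 9 only shLmna libraries did. They were in the table through shLmna alone and had to be higher, so nothing is read from this count. With the GC correction added, Zfp472 (adjusted p = 0.068), Zfp758 (adjusted p = 0.055) and Zfp800 (log2 fold change 1.28, adjusted p = 0.17) were lost. Without that correction 0 of the 49 fell with edgeR, the only tool run without the filter, and 2 were lower at an unadjusted p below 0.05. Zfp935, a member at 11, 10 and 9 UMIs against 2, 3 and 4, had an adjusted p of 0.074. With the correction it fell by 2.15 on the log2 scale (adjusted p = 0.018), and its 3' end matches 301 bases of Gm49359 exactly, so its counts are uncertain. Of all 189 members, 38 had every shLmna library above every shControl library and 25 had them below. Together these are 63 members without overlap, beside 31.3% of all genes.

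Of these 9, 6 lie in 1 stretch of proximal chromosome 17. Chains of members less than 500 kb apart were made over the whole genome, which gave 9 chains of 4 or more members. A chain at chr17:21423227-22377281 (GRCm38) holds Zfp54, Zfp51, Zfp53, Zfp52, Zfp948, Zfp942, Zfp943, Zfp944 and Zfp758, all with a KRAB pattern and between 11 and 19 fingers. This chain was singled out after its values were seen, and they are given as a description. For none of its members did a shControl library reach the 6 UMIs that each gene of the table has in some library. All 9 were thus in the table through the shLmna libraries alone, which set their direction. Together the 9 members had 2, 4 and 13 UMIs in the shControl libraries and 66, 112 and 74 in the shLmna libraries. The summed normalized counts were 7.40 ± 8.45 and 87.1 ± 22.3 (SD, n = 3), a ratio of 11.8. Most of the control UMIs came from shControl replicate 3, and without that library the ratio was 34.5.

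Within the chain each member followed the same order. Zfp942 had 0 UMIs in every shControl library and 4, 10 and 7 in the shLmna libraries, which is at least 7.35-fold higher when set against 3 UMIs over the whole control group. Zfp758 had 0 in every shControl library and 1, 8 and 6 in shLmna, at least 5.25-fold higher on the same terms. Zfp52 had 0, 1 and 1 UMIs against 6, 23 and 6, a ratio of 18.4 with a counting interval of 4.72 to 158. Zfp53 had 0, 0 and 2 against 6, 12 and 9, a ratio of 14.2 (3.56 to 123). These intervals cover counting error only. Zfp51 had 0, 0 and 1 UMIs against 6, 7 and 7, and its 3' end is 97.3% identical over 255 bases to Gm10226, so its counts are uncertain. Zfp944 had 0, 0 and 1 against 6, 6 and 10, a ratio of 23.1 (3.73 to 953). Zfp54 had 0, 1 and 3 against 7, 5 and 14 (adjusted p = 0.064) and Zfp943 0, 1 and 0 against 1, 9 and 2 (adjusted p = 0.10), and neither passed. In Zfp943 the lowest shLmna library and the highest shControl library both held 1 UMI, so their order rests on the scaling alone.

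**Figure D4:**
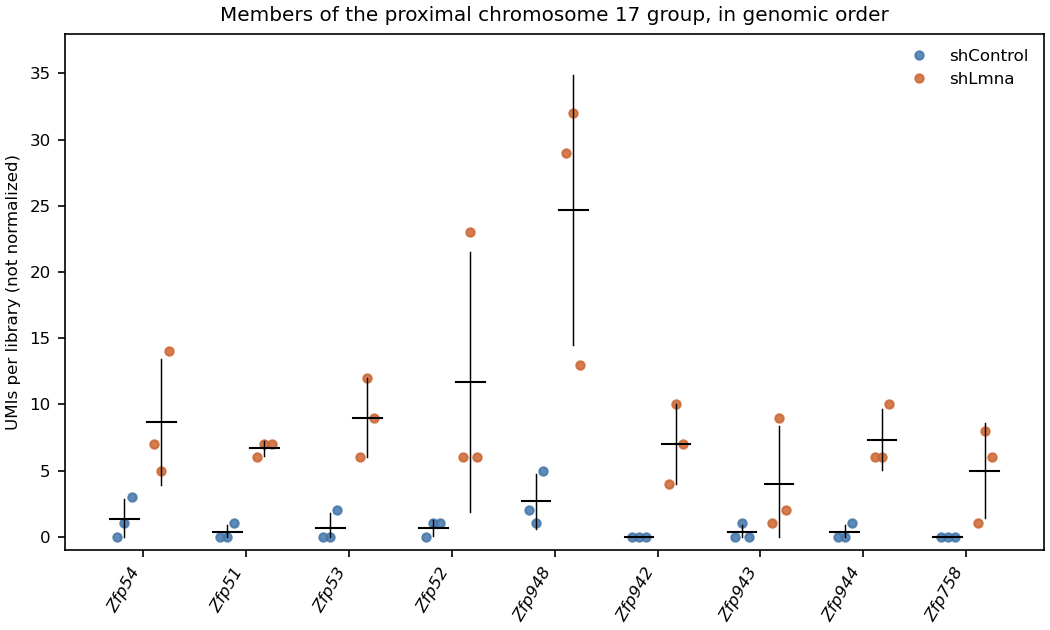
UMIs per library, not normalized, of the 9 Zfp members of the chromosome 17 chain, in genomic order, with shControl in blue and shLmna in orange and bars for the mean ± SD of 3 libraries. The shControl libraries sit between 0 and 5 UMIs in every gene, and the shLmna libraries between 1 and 32.

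The promoters of this chain fall into 2 kinds. The sequences are from RefSeq (GRCm38.p6), cover 250 bases before to 50 after the start of transcription, and were matched for 156 of the 189 members and 8 of these 9. Capitals mark a CCAAT box (CCAAT) or a GC box (GGGCGG), searched on both strands. Zfp54, Zfp53, Zfp52 and Zfp948 were alike at 71.1 to 74.2% identity where they could be aligned. The starts of Zfp942 and Zfp943 face away from each other, as do those of Zfp944 and Zfp758, and each pair shares 1 promoter region. The promoters of Zfp943 and Zfp758, from the 2 pairs, aligned over 293 bases at 99.7% identity, with 0 mismatches and 1 gap. Zfp367, with the largest rise among tested members, is shown beside them.
Zfp948, chr17:21566728-21567027 (plus strand): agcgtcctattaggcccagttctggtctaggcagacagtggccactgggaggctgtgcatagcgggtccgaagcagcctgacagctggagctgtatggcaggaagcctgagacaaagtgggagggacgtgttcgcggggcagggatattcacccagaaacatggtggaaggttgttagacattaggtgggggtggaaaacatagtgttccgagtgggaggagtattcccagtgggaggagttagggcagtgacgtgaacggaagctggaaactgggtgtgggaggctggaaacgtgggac
Zfp53, chr17:21488738-21489037 (plus strand): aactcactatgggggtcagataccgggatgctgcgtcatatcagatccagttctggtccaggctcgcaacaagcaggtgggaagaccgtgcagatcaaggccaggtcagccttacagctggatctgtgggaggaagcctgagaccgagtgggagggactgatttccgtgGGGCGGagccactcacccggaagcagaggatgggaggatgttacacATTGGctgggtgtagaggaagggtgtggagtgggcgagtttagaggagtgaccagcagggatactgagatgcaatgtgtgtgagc
Zfp943, chr17:21962309-21962608 (plus strand): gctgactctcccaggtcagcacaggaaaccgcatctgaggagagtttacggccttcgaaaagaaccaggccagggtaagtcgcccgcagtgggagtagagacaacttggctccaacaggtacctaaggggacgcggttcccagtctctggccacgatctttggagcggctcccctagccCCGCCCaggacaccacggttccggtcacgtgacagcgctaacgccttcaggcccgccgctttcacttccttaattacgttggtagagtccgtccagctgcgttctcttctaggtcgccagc
Zfp758, chr17:22361213-22361512 (plus strand): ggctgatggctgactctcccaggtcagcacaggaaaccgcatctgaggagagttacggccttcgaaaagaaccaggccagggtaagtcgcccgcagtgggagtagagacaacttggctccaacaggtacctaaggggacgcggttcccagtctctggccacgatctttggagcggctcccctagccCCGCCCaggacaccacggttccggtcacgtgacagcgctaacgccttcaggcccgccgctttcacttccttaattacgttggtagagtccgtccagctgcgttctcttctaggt
Zfp367, chr13:64153150-64153449 (minus strand): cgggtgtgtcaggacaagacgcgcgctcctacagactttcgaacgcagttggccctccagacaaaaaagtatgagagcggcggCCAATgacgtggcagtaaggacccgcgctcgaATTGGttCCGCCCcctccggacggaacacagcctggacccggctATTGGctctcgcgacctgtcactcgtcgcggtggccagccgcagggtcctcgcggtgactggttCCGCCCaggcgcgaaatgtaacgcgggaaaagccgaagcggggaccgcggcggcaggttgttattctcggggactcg

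A GC box was present in 6 of the 8 promoters of the chain and a CCAAT box in 2. The promoters of Zfp942, Zfp943, Zfp944 and Zfp758 all hold a GC box, but they overlap or are near copies of each other. They are not separate cases, so the count is not read against the shares that follow. Over all 32817 RefSeq promoters of this length the shares were 35.6% and 37.4%, and over those of the 156 members 46.2% and 48.7%. The CpG count ran from 5 to 22 in the chain, beside a median of 16 in members and 7 in all promoters. The ETS site CCGGAAGT was found in 10.9% of member promoters and 3.89% of all, and the TATA box TATAAA in 7.05% and 13.6%. In the promoters of the chain neither was found. These are matches of letters in a window and not sites of binding.

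In their summed counts the other chains did not share this pattern, but single members outside the chromosome 17 chain did. Zfp930, of a chain on chromosome 8, had 0, 1 and 1 UMIs against 6, 13 and 9. Zfp472, which lies in none of the chains, had 0, 0 and 1 against 4, 6 and 4. Both have a KRAB pattern and 3' ends of 36.0 and 35.4% GC. Zfp935, also with a KRAB pattern and at 34.6% GC, went the other way. In the chain of 12 members on chromosome 7 that holds Zfp260, 1 rose and 1 fell (Zfp568), and their summed normalized counts were 298 ± 44.3 and 246 ± 6.95. Zfp566, 4.25 kb from Zfp260, had a log2 fold change of -0.54 (adjusted p = 0.24), and Zfp382 one of -0.80 (adjusted p = 0.16). The chain of 6 members on chromosome 13 that holds Zfp87 summed to 59.1 ± 4.77 and 66.4 ± 1.42. Across the 9 chains the ratio of shLmna to shControl ran from 0.779 to 1.23, except for the chromosome 17 chain. Of members with another within 200 kb 73 were tested, 3 rose and 3 fell, which is 8.22% called. Of the more isolated ones 67 were tested, 5 rose and 5 fell, which is 14.9%, beside 13.7% of all genes, and this difference was not tested.

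The base composition of the 3' end was set beside these results. The GC content given here is that of the final 1000 bases in the annotated transcript. The 9 members of the chromosome 17 chain had 32.1 to 36.4% GC, the lowest of the 9 chains by median. Of the 38 tested members under 40% GC, 4 rose (Zfp367, Zfp948, Zfp260 and Zfp644), and with edgeR, limma-voom and DESeq2 alike 0 fell, with 1 lower at an unadjusted p below 0.05. All 4 passed the filter through the shLmna libraries alone, which set their direction, and nothing is read from this count. Of all 1709 tested genes under 40% GC, 261 rose and 40 fell. Of the 37 members with 50% GC or more, 1 rose and 4 fell, beside 246 and 247 of 3411 genes. Across the 140 tested members the Spearman correlation of GC content with log2 fold change was -0.14, beside -0.13 across 8932 genes, a description over genes that share the same 6 libraries.

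**Figure D5:**
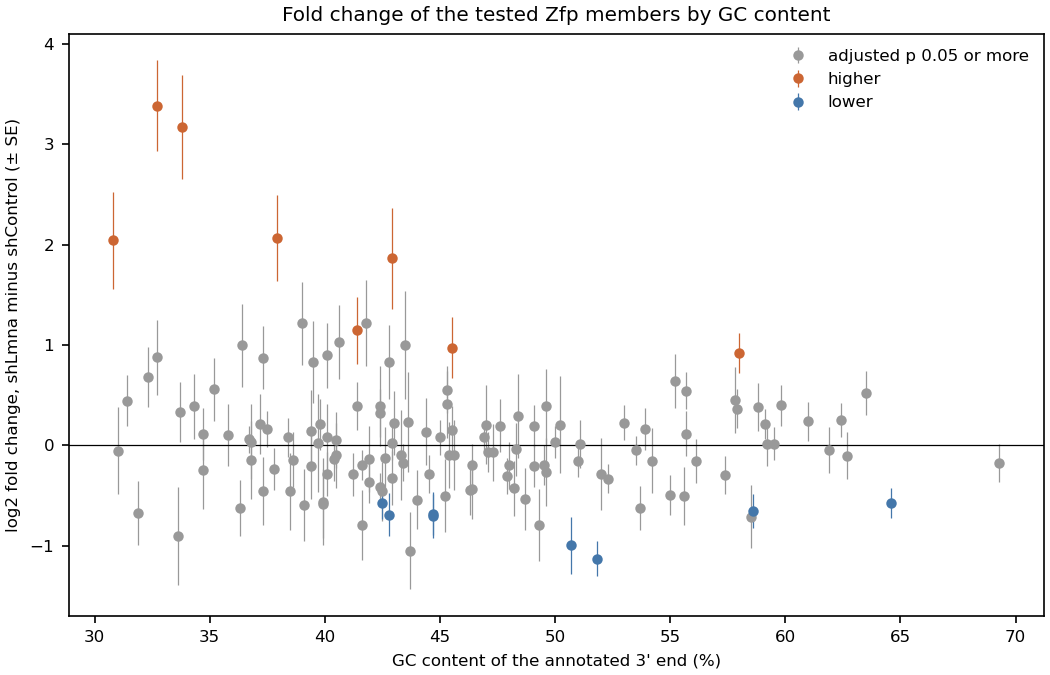
Log2 fold change (shLmna minus shControl) with its standard error against the GC content of the annotated 3' end, for the 140 tested Zfp members. Orange marks the 8 members that rose and blue the 8 that fell. The members with a log2 fold change above 2 all lie below 40% GC.

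Genes outside the family were counted in the same way. Of 368 other genes below the filter with under 40% GC, 48 rose in the fit without a filter and 2 fell, and of the 29 members in that class 9 rose. Those 9 were in the table through the shLmna libraries alone, so nothing is read from their count. Of the 516 other genes below the filter with 50% GC or more, 2 rose and 7 fell. Genes with ends under 35% GC, leaving out members, took 1.1, 1.3 and 1.6% of all UMIs in the shControl libraries, in the order of their replicate numbers, and 1.5, 1.9 and 1.8% in the shLmna libraries. The part of base composition in the counts of the chromosome 17 chain was not tested. With fold changes corrected for GC content, Zfp367 kept a log2 fold change of 2.77 and Zfp948 one of 2.66. The correction without the filter was added after the values were seen. There Zfp948 and 5 other members of the chain passed, namely Zfp51, Zfp52, Zfp53, Zfp942 and Zfp944. Zfp758, Zfp54 and Zfp943 did not (adjusted p = 0.055, 0.095 and 0.17). All of these genes entered through the shLmna libraries alone, so passing does not speak for their direction. The correction scales counts and leaves a count of 0 at 0.

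The low-count filter bears on the calls by level. Of the tested members, 10 had no shControl library at the level the filter asks for and 1 had no shLmna library at it. The filter asks the same of both groups. In these members, entry through 1 group alone set the direction. Of 44 tested members with a mean under 20 normalized counts 7 rose, 6 of them kept through the shLmna libraries alone, and with edgeR, limma-voom and DESeq2 alike 0 fell, with 3 lower at an unadjusted p below 0.05. Of 27 with a mean of 100 or more 5 fell with edgeR, and 4 with limma-voom and with DESeq2. With each of these tools 0 rose, and with edgeR 0 were higher at an unadjusted p below 0.05. For all genes the counts were 121 higher and 50 lower of 1240 under 20, and 316 higher and 304 lower of 4208 at 100 or more.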

How the data were processed

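Bulk MARS-seq libraries of 3 shControl and 3 shLmna E0771 samples were analysed, grouped by the sample labels. The authors used Cutadapt for trimming, STAR 2.4.2a for mapping to mm10, and HTSeq to count UMIs per RefSeq gene over its final 1000 bases plus 100 bases beyond, and the deposited counts are whole numbers that are not normalized. Every gene in the table reaches at least 6 UMIs in some library, and how the others were left out is not given in the sources used here, nor is the use of strand. The authors also deposited log2 values corrected with ComBat and a DESeq2 table of fold changes and p-values, which were not used.

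Counts were tested with edgeR 4.0.16 in R 4.3.3 (filterByExpr with a minimum count of 10, TMM scaling, quasi-likelihood test, no replicate block), and p-values were adjusted by the Benjamini-Hochberg method over all 8969 genes tested. "Rose" and "fell" mean an adjusted p below 0.05. Normalized counts are UMIs divided by the TMM-scaled library size, on the scale of the mean library. The authors' thresholds of a mean above 5 and an absolute log2 fold change above 1 define a change of over 2-fold. Precision is limited by counts as low as 0 to 5 UMIs, and counting intervals are exact binomial at 95%. Alternatives were DESeq2 1.42.0, limma-voom (limma 3.58.1), RLE and upper-quartile scaling, no filter, a mean count of at least 50, a replicate block, a GC correction (loess, span 0.3), thinning to the smallest library, and leaving out each library. No filter together with the GC correction was added after the values were seen. The scripts were tested on simulated data.

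Members, lists and named genes were chosen with earlier results of these data known. Named were members with over 2-fold calls, the 5 most abundant, those with known roles, those nearest the threshold and co-repressors that passed, and the other called members were named after their values were seen. Positions came from GENCODE M21 (GRCm38), which matched all 189 members, 2 through an older symbol. Fingers and KRAB boxes were searched as patterns in the translated coding sequence, the KRAB pattern after sequences had been read, and similar 3' ends with blastn 2.17.0 (at least 95% identity over 100 bases).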

Additional observations from a re-analysis of the deposited data

How the results depend on the processing

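With 3 libraries a group and few UMIs per member, the counts of calls moved with the processing, and the cause was not tested except where the setting tests fewer genes or samples. Zfp367, Zfp948, Zfp260, Zfp523 and Zfp703 kept their call in every alternative in which they were tested. Zfp367, Zfp948 and Zfp260 were not tested at a mean count of at least 50, nor was Zfp260 after thinning. These members entered the main test through the shLmna libraries alone, so a kept call does not speak for their direction. Against 8 members higher and 8 lower, DESeq2 gave 5 and 4, thinning to the smallest library 4 and 3, and a mean count of at least 50, which tested fewer genes, 1 and 4. Without the filter 16 were higher, and 14 when the GC correction was added to that, an alternative chosen after seeing the data. Members over 2-fold higher numbered 6, but 10 without the filter, 3 after thinning and 0 at a mean count of at least 50. Members over 2-fold lower numbered 1, but 2 with RLE scaling, without the filter and with the GC correction, and 4 without the filter and with the GC correction together. The median log2 fold change of -0.01 became -0.094 at a mean count of at least 50, -0.099 with the GC correction, and -0.094 without the filter and with it. Of the co-repressors 6 rose, and 2 at a mean count of at least 50. Zfp207, which passed in no setting, turned from 0.06 to -0.25 with the GC correction, -0.26 with the GC correction and replicate block, -0.27 without the filter and with the GC correction, and ran from -0.031 to 0.115 when each library was left out in turn, below 0 without shControl replicate 1.

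Leaving out each library in turn gave 4 to 9 members higher (4 without shLmna replicate 3, 5 without shLmna replicate 2 or shControl replicate 2) and 1 to 8 lower (1 without shLmna replicate 2, 2 without shControl replicate 1 or 2, 3 without shLmna replicate 1 or 3). Over 2-fold, 3 to 7 were higher and 0 to 3 lower, the median ran from -0.070 to 0.034, and 4 to 5 co-repressors rose while 0 to 1 fell.

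The replicate numbers are shared between groups, but deviations of same-numbered libraries correlated at 0.35, -0.11 and 0.01, so they were not taken as pairs. With the replicate number as a block 7 members were higher and 7 lower, 6 over 2-fold higher and 2 over 2-fold lower, and with the GC correction and the block 3 were over 2-fold lower and the median was -0.11.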
